A study of Homo sapiens with 8 samples.

Results

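Genes of purine synthesis, salvage and breakdown were followed in MRC5 cells, an established line of human diploid lung fibroblasts, after exposure to 8-oxoguanine, the free oxidised form of the base guanine. The set was fixed by name as 36 genes, and each gene was read from its brightest probe set, the short-oligonucleotide group that reports a transcript, among those annotated with that symbol alone. The 12 h arrays carried such a probe set for 30 of the 36 genes, out of 7713 named genes, and 28 of the 30 were bright enough to be tested. The 6 h arrays, of another and larger type, carried 32 of the 36, out of 11963 named genes, and 28 of the 32 passed the signal limit. ADSS2, GDA, GMPR2 and NME2 were not analysed at either time and PFAS and SAMHD1 not at 12 h.

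The treated cells received 10 µM 8-oxoguanine and the mock cells its solvent, in serum-containing medium, and total RNA was taken from the whole culture. At 6 h there was a single array per group, and at 12 h each group had 3 arrays from separate extracts, labelled as technical replicates. The protocol text gives a 6 h exposure throughout, and the time labels were followed for the 12 h arrays. Whether separate cultures stood behind the extracts is not stated, and the p-values below measure only the spread between extracts, which may be technical. In such bulk RNA a lower signal per cell and fewer cells that hold the transcript cannot be told apart. All values have a precision set by this small number of arrays.

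Purines are built on phosphoribosyl pyrophosphate (PRPP) through a chain of enzymes that ends at inosine monophosphate (IMP), from which separate branches lead to AMP and GMP. Free bases are returned to nucleotides by phosphoribosyltransferases, nucleosides by kinases, and surplus purines are deaminated, cleaved to bases and oxidised to uric acid. Proliferating fibroblasts draw on both the new synthesis and the salvage route.

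The arrays were close in overall level, with median signals of 143 to 165 in the scaled linear units of the files. All 8 listed fibroblast markers were above the signal limit at 12 h, among them COL1A2, a collagen chain, with a mock signal of 21235 ± 2247 and a treated signal of 21233 ± 2749.7 (SD, n = 3), and THY1 at 6996 ± 976 and 7079 ± 918 (SD, n = 3). At 12 h 6 of the 8 did not pass the test and 2 rose, LUM, the matrix proteoglycan lumican, from 143 ± 28.7 to 297 ± 14.9 (SD, n = 3; log2 fold change 1.07, SE 0.17, limma adjusted p = 0.00340) and PDGFRB, a growth factor receptor, from 964 ± 68.3 to 1185 ± 68.4 (SD, n = 3; log2 fold change 0.30, SE 0.084, limma adjusted p = 0.0446). At 6 h 4 of the 8 were 1.5-fold or more higher on the treated array as deposited, and 0 with quantile normalization. Of 15 measured markers of epithelial, endothelial, blood and muscle cells, 11 were under the limit, 3 did not pass the test and KRT19, a keratin of epithelia, fell from 277 ± 6.24 to 116 ± 21.1 (SD, n = 3; log2 fold change -1.27, SE 0.17, limma adjusted p = 0.00145). Their summed signal was 973 to 1106 on the mock and 869 to 982 on the treated arrays. The ratio of the actin control from the 3' to the 5' end of the message, a sign of RNA quality, was 0.889 to 0.995 on the mock and 0.999 to 1.07 on the treated arrays, without overlap. The part of these differences in the results below was not tested.

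At 12 h more purine genes fell than rose, and every change was smaller than 1.5-fold. Of the 28 genes tested, 8 fell (PRPS1, PAICS, DGUOK, AMPD2, NME1, GUK1, NT5E and ITPA), 1 rose (IMPDH2) and 19 did not pass limma's test, in which a gene is called at a Benjamini-Hochberg adjusted p under 0.05 over all probe sets. The genes that fell made up 28.6% of those tested, beside 6.65% of all 5248 probe sets, and the gene that rose 3.57%, beside 6.59%. The median log2 fold change of the 28 genes was -0.14 and that of all probe sets 0.0072. The treated and mock arrays did not overlap at 11 genes that lay lower in treated cells (39.3%, beside 16.5% of all probe sets) and at 3 that lay higher (10.7%, beside 17.4%). The count of falls depended on single arrays. It was 2, 4 and 8 without 8-oxoguanine replicates 1, 2 and 3, and 5, 6 and 2 without mock replicates 1, 2 and 3. Over all probe sets the falls went from 349 to 188, 199 and 315, and to 248, 323 and 218, in the same order. Mock replicate 2 lay furthest from its group, with median absolute log2 differences of 0.183 and 0.177, beside 0.123 between the other mock arrays. So did 8-oxoguanine replicate 3, with 0.161 and 0.166, beside 0.104 between the other treated arrays. The part of this in the counts was not tested. The rise of IMPDH2 kept its call without mock replicate 2 and lost it without any other mock or treated array.

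**Figure D1:**
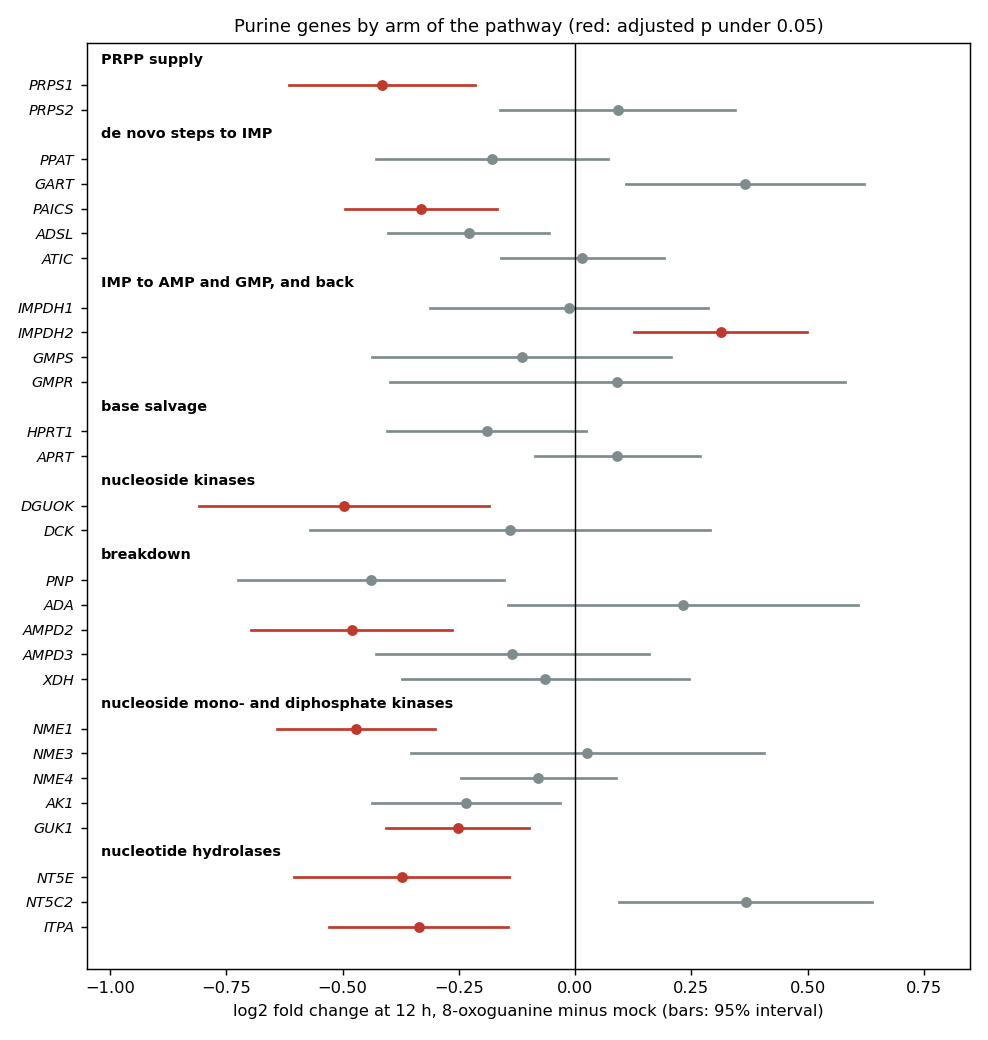
Log2 fold change at 12 h, 8-oxoguanine minus mock, of the 28 tested purine genes (y axis, grouped by arm of the pathway), with 95% intervals from limma. The 9 called genes are in red, 8 of them left of 0 and IMPDH2 right of it.

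RefSeq promoter windows on assembly GRCh38.p14, which hold the 250 bases before and 50 after a gene's start, were found for 34 of the 36 genes. They were searched for CACGTG, the E-box bound by MYC, MAX and USF factors, which reads the same on both strands. It occurred in 5 of the 34 windows (14.7%), those of PPAT, ATIC, DCK, AMPD2 and NME1, beside 8.88% of 15842 windows of protein-coding genes and 7.43% of the 27305 windows in the table. Of the 8 genes that fell, AMPD2 and NME1 held it, and of 18 tested genes with a window that did not pass, 3 did. The matches therefore lay both in genes that fell and in genes that did not pass. A single window was searched per gene, so a match near another start of a gene would be missed. The window of PAICS, which fell, was chr4:56410257-56410556 on the plus strand. Whether PAICS also starts near the PPAT stretch below was not tested. In NME1 the match lay after the start. The stretches before the start are given for AMPD2, which fell, and for PPAT and ATIC, the first and last enzymes of the new synthesis, which did not pass the test, with the E-box in capitals.
AMPD2, chr1:109619587-109619836, plus strand: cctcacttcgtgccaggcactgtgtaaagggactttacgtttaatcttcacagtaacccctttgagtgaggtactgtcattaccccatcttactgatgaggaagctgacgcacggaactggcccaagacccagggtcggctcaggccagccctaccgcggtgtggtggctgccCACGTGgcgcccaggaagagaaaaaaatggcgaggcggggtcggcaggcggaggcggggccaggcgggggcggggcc
PPAT, chr4:56435616-56435865, minus strand: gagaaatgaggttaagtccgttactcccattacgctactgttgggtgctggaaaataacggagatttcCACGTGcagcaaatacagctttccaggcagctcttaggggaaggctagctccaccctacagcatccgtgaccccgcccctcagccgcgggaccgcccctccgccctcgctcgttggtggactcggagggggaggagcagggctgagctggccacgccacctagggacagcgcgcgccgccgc
ATIC, chr2:215311809-215312058, plus strand: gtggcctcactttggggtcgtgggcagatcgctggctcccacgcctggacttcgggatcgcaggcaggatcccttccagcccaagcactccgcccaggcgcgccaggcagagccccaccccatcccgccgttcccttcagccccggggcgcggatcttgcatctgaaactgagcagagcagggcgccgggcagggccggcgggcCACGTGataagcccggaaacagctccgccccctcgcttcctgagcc

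The supply of PRPP was read from its synthetase genes PRPS1, which fell, and PRPS2, which did not pass the test. PRPS1, the widely expressed PRPP synthetase, had signals of 818, 829.8 and 881 on the mock arrays and 616, 691 and 592 on the treated arrays. Each treated array lay below each mock array, and the gene fell (log2 fold change -0.42, SE 0.089, limma adjusted p = 0.0145). PRPS2, its close relative, had a mock signal of 295 ± 23.3 and a treated signal of 314 ± 4.67 (SD, n = 3), and its log2 fold change of 0.091 did not pass (95% interval -0.16 to 0.34).

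The route from PRPP to IMP held 1 fall among 5 measured genes, beside falls in 6.65% of all probe sets. PAICS, which encodes a bifunctional enzyme of the middle of the chain, had signals of 1852, 2023 and 1970.3 on the mock arrays and 1493, 1513 and 1642 on the treated arrays. All treated arrays were lower (log2 fold change -0.33, SE 0.073, limma adjusted p = 0.0161). GART, a trifunctional enzyme with a formyl transfer step, lay the other way, with 436, 335 and 384 on the mock and 496, 499 and 484 on the treated arrays. Its groups did not overlap, but the log2 fold change of 0.37 (SE 0.11) missed the threshold (limma adjusted p = 0.0619), and passed it without mock replicate 1, whose signal was the highest of the mock arrays (log2 fold change 0.46, limma adjusted p = 0.0406).

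ADSL, adenylosuccinate lyase, acts both in this chain and on the way from IMP to AMP. Its signals were 1056, 1148 and 1064 on the mock arrays and 934, 971 and 884 on the treated arrays, again without overlap, and its log2 fold change of -0.23 did not pass (95% interval -0.40 to -0.055, limma adjusted p = 0.0813). PPAT, the amidotransferase that commits PRPP to purine synthesis, had 395 ± 30.4 and 349 ± 25.7 (SD, n = 3), and its arrays overlapped (log2 fold change -0.18, 95% interval -0.43 to 0.070). ATIC, which closes the ring, had a mock signal of 1587 ± 96.9 and a treated signal of 1603 ± 95.6 (SD, n = 3), and its log2 fold change of 0.015 changed sign when arrays were centred or left out. The enzymes of this chain thus had values on both sides of 0 at 12 h, from -0.33 for PAICS to 0.37 for GART.

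The branch to GMP held the single rise. IMPDH2, the main form of IMP dehydrogenase in dividing cells and the entry to guanine nucleotides, had signals of 2910.0, 3467 and 3029.7 on the mock arrays and 3820.2, 3711 and 4134 on the treated arrays. It rose by 24.2% (log2 fold change 0.31, SE 0.083, limma adjusted p = 0.0353), and the lowest treated array was above the highest mock array. IMPDH1, the other form of this enzyme, had 474 ± 77.0 and 467 ± 37.4 (SD, n = 3) and a log2 fold change of -0.014 (95% interval -0.31 to 0.28). GMPS, which makes GMP in the next step, had 539 ± 107 and 491 ± 27.9 (SD, n = 3) and did not pass (95% interval -0.44 to 0.21). GMPR, the reductase that returns GMP to IMP, was dim at 125 ± 21.0 and 133 ± 25.6 (SD, n = 3), and its interval ran from -0.40 to 0.58. The signs of IMPDH1, GMPS and GMPR turned when single arrays were left out.

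Salvage of free bases showed no call at 12 h. HPRT1, the transferase that takes hypoxanthine and guanine, had signals of 1317, 1080.0 and 1301 on the mock arrays and 1091, 1135 and 1006 on the treated arrays. The ranges overlapped through mock replicate 2, and the log2 fold change was -0.19 (95% interval -0.40 to 0.024, limma adjusted p = 0.226). APRT, which takes adenine, had 743, 786 and 730.0 on the mock and 781, 838 and 786 on the treated arrays, and its log2 fold change was 0.090 (95% interval -0.087 to 0.27).

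Of the nucleoside kinases, DGUOK, the mitochondrial kinase of deoxyguanosine, had signals of 346, 288 and 377 on the mock arrays and 232, 219.7 and 261 on the treated arrays. It had the largest fold change of the 28 genes, a fall of 29.2% (log2 fold change -0.50, SE 0.14, limma adjusted p = 0.0440), and also a wide 95% interval of -0.81 to -0.19. DCK, the cytosolic kinase of deoxynucleosides, was dim, with 128 ± 17.3 and 116 ± 6.50 (SD, n = 3), and did not pass (95% interval -0.57 to 0.29). ADK, adenosine kinase, was under the signal limit of 93.9 on its 12 h probe set, with 52.0, 32.2 and 39.9 on the mock and 48.5, 58.6 and 55.1 on the treated arrays, and was not tested there.

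In the breakdown route, AMPD2, an AMP deaminase, had signals of 959, 996 and 1006 on the mock arrays and 732, 778 and 621 on the treated arrays. The mock arrays lay within a narrow band and all treated arrays below it, with a fall of 28.3% (log2 fold change -0.48, SE 0.10, limma adjusted p = 0.0105). AMPD3, another AMP deaminase, had 320.3 ± 45.3 and 290.1 ± 16.1 (SD, n = 3) and overlapped (95% interval -0.43 to 0.16). PNP, the phosphorylase that cleaves guanosine and inosine to their bases, had 602, 595 and 701 on the mock and 451, 405 and 553 on the treated arrays. These did not overlap, and the log2 fold change of -0.44 (SE 0.13) lay at the edge of the threshold (limma adjusted p = 0.0501). It passed without 8-oxoguanine replicate 3 (log2 fold change -0.56, limma adjusted p = 0.0184).

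ADA, adenosine deaminase, was dim at 186 ± 22.3 and 218 ± 32.8 (SD, n = 3), with a log2 fold change of 0.23 (95% interval -0.14 to 0.61). XDH, xanthine dehydrogenase, which forms uric acid, had a mock signal of 295 ± 43.6 and a treated signal of 280.3 ± 12.3 (SD, n = 3) and a log2 fold change of -0.064 (95% interval -0.37 to 0.24). Neither passed, their arrays overlapped, and the sign of XDH turned when single arrays were left out.

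Nucleotide kinases held 2 falls among 5 measured genes, beside falls in 6.65% of all probe sets. NME1, a nucleoside diphosphate kinase, had signals of 3209, 3448 and 3285 on the mock arrays and 2455, 2536 and 2192 on the treated arrays. It fell by 27.9% with no overlap (log2 fold change -0.47, SE 0.076, limma adjusted p = 0.00382), the lowest adjusted p among the 28 genes. NME1 shares much of its sequence with its neighbour NME2, and how much of this signal comes from NME2 was not tested. NME3 and NME4, further members of the family, had log2 fold changes of 0.026 (95% interval -0.35 to 0.41) and -0.080 (95% interval -0.25 to 0.087) and overlapped, and the sign of NME3 turned when single arrays were left out. GUK1, guanylate kinase, which phosphorylates GMP, had 1674, 1726 and 1657 on the mock and 1379.6, 1385 and 1484 on the treated arrays. It fell by 16.0% (log2 fold change -0.25, SE 0.069, limma adjusted p = 0.0396), the smallest of the called changes. A dim further probe set of GUK1, under the signal limit, had 39.0 ± 6.59 and 33.2 ± 9.09 (SD, n = 3) and overlapped. AK1, an adenylate kinase, had 758, 825 and 766 on the mock and 627, 641 and 730.0 on the treated arrays, without overlap, and did not pass (log2 fold change -0.24, limma adjusted p = 0.118).

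Among the enzymes that hydrolyse nucleotides, NT5E, the cell surface nucleotidase CD73 that makes adenosine from AMP, had signals of 1563, 1289 and 1435 on the mock arrays and 1061, 1249 and 1005 on the treated arrays. The highest treated array was just below the lowest mock array, and the log2 fold change was -0.37 (SE 0.10, limma adjusted p = 0.0426). ITPA, which removes inosine triphosphate and related deaminated nucleotides from the pool, had 709, 807 and 734 on the mock and 589.7, 580.2 and 611 on the treated arrays. The treated arrays lay close together below all mock arrays (log2 fold change -0.34, SE 0.086, limma adjusted p = 0.0303).

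NT5C2, a cytosolic nucleotidase with a preference for IMP and GMP, had 365, 309 and 304 on the mock and 465, 410.2 and 385 on the treated arrays. Its treated arrays were all higher, and its log2 fold change of 0.37 did not pass (SE 0.12, limma adjusted p = 0.0752). ENTPD1, the ectonucleotidase CD39, was under the signal limit, with 71.6, 125 and 42.2 on the mock and 20.4, 57.9 and 49.8 on the treated arrays, and was not tested.

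**Figure D2:**
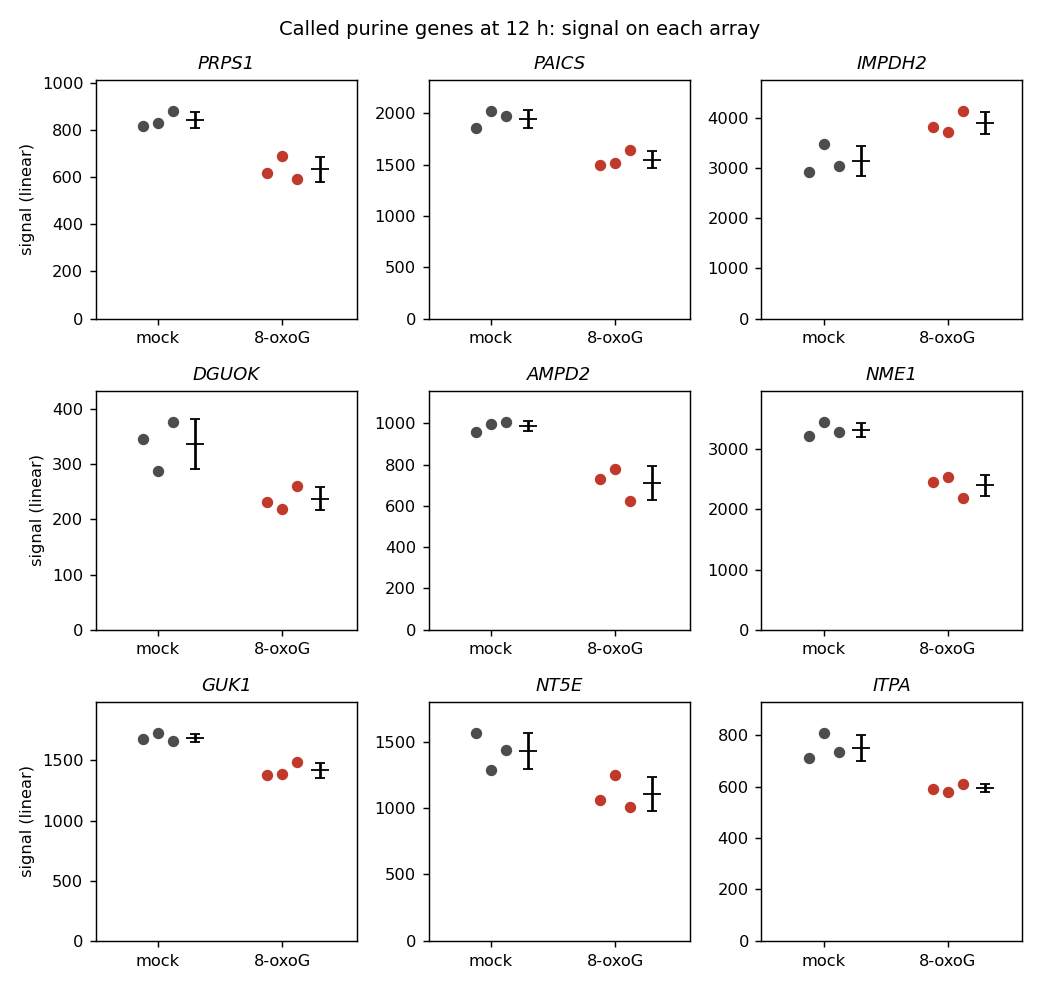
Signal (linear units, axes from 0) of the 9 called purine genes on each 12 h array, with 3 mock and 3 treated (8-oxoG) points and the mean ± SD beside them. No treated point lies within the mock range; IMPDH2 is higher and the other 8 are lower in treated cells.

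The calls differed in how well they held when 1 array was left out. NME1 and AMPD2 kept theirs without any one of the 6 arrays, and in all 14 alternative settings tried, with the largest adjusted p at 0.0264 for NME1 and 0.0393 for AMPD2. PRPS1 lost its call without 8-oxoguanine replicate 1 (limma adjusted p = 0.0622) or mock replicate 3 (0.0580). PAICS lost it without either of these (0.0785 and 0.0581) or without 8-oxoguanine replicate 2 (0.0722).

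The other calls were less stable. ITPA lost its call when 8-oxoguanine replicates 1 and 2 and mock replicates 2 and 3 were left out in turn (limma adjusted p = 0.104, 0.109, 0.0657 and 0.0742). DGUOK lost it in the same way for 8-oxoguanine replicates 1 and 2 and mock replicates 1 and 3 (0.128, 0.141, 0.112 and 0.143), and NT5E for 8-oxoguanine replicates 1 and 3 and mock replicates 1 and 3 (0.134, 0.108, 0.126 and 0.102). GUK1 kept its call only without 8-oxoguanine replicate 3 (0.0355) and had 0.144, 0.141, 0.0880, 0.0684 and 0.0888 without the others. IMPDH2 kept its call only without mock replicate 2 (0.0115), its highest mock array, and had 0.0967, 0.0722, 0.0855, 0.113 and 0.108 otherwise. The sign of each of the 9 changes stayed the same in every setting tried, which is no further check. The groups of these genes did not overlap, so leaving out an array could not turn it. The signal limits, the intensity trend and the block do not alter the log2 fold change.

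**Figure D3:**
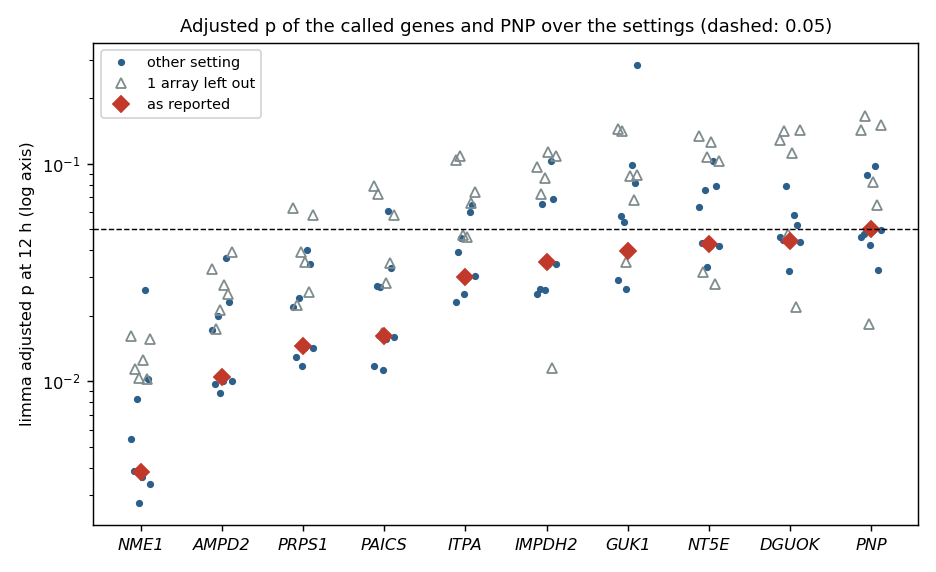
Limma adjusted p at 12 h (log axis) of the 9 called purine genes and PNP as reported, with 1 array left out and under the other settings, with the threshold of 0.05 dashed. NME1 and AMPD2 stay below the line throughout, while the other 7 called genes and PNP cross it.

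Genes that border on the pathway were read from further lists, none of which was tested as a set. Their 12 h counts stand beside 6.65% of all 5248 probe sets that fell and 6.59% that rose. Of 14 tested genes in the list of other purine enzymes, 3 fell, 1 rose and 10 did not pass, with a median log2 fold change of -0.10. AK4, a mitochondrial adenylate kinase, fell by 0.51 on the log2 scale (SE 0.091, limma adjusted p = 0.00639), from 1393 ± 84.2 to 981 ± 96.2 (SD, n = 3). PAPSS2, which makes the sulfate donor PAPS from ATP, fell by 0.43 (SE 0.074, limma adjusted p = 0.00510). The regulatory partners of PRPP synthetase moved apart. PRPSAP1 rose by 0.29 (SE 0.076, limma adjusted p = 0.0358) and PRPSAP2 fell by 0.43 (SE 0.12, limma adjusted p = 0.0488). Without 8-oxoguanine replicate 1 these adjusted p-values were 0.0934 and 0.136. PRPSAP1 lost its call without any one array (0.0662 to 0.134), and PRPSAP2 without any but mock replicate 2 (0.0927 to 0.156).

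The folate enzymes that supply formyl groups to GART and ATIC moved in both directions. Of 5 tested, 2 rose, 1 fell and 2 did not pass, with a median of 0.30. MTHFD2, the mitochondrial methylene-tetrahydrofolate dehydrogenase, had 1477, 1231 and 1444 on the mock and 2304, 2229.7 and 2148 on the treated arrays and rose by 0.69 on the log2 scale (SE 0.084, limma adjusted p = 0.00101). SHMT2, the mitochondrial serine hydroxymethyltransferase, rose by 0.30 (SE 0.079, limma adjusted p = 0.0323), and MTHFD1, the cytosolic enzyme that makes formyl-tetrahydrofolate, fell by 0.34 (SE 0.093, limma adjusted p = 0.0402). Both of the last calls were lost when any array but mock replicate 3 was left out, with limma adjusted p of 0.0681 to 0.0869 for SHMT2 and 0.0632 to 0.123 for MTHFD1.

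In the list of enzymes that make or use amino acid donors or supply pentose phosphate, 3 of 7 rose, 1 fell and 3 did not pass. ASNS, asparagine synthetase, rose by 1.35 (SE 0.071, limma adjusted p = 7.18e-06), GLUL, glutamine synthetase, whose product feeds purine synthesis, by 0.55 (SE 0.092, limma adjusted p = 0.00440), and GOT1, an aspartate aminotransferase, by 0.33 (SE 0.081, limma adjusted p = 0.0272). TALDO1, transaldolase, fell by 0.35 (SE 0.071, limma adjusted p = 0.0105). Left out in turn, all arrays but 8-oxoguanine replicate 3 and mock replicate 2 ended the call of GOT1, with limma adjusted p of 0.0757 to 0.109.

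Of 13 tested pyrimidine genes, 2 fell and 11 did not pass, with a median of -0.14. TYMS, thymidylate synthase, went from 1937 ± 78.9 to 1048 ± 98.1 (SD, n = 3), a log2 fold change of -0.89 and an SE of 0.084 (limma adjusted p = 0.000263), and TK1, the thymidine kinase of S phase, from 450.4 ± 12.3 to 273 ± 22.1 (SD, n = 3; log2 fold change -0.73, SE 0.11, limma adjusted p = 0.00250). Of 3 tested genes of nucleotide sanitation and deoxynucleotide supply, the ribonucleotide reductase subunits RRM2 and RRM1 fell by 1.19 (SE 0.086, limma adjusted p = 5.68e-05) and 0.49 (SE 0.093, limma adjusted p = 0.00823). RRM1, RRM2, TYMS and TK1 serve DNA replication in S phase, and the part of their falls in the lower purine genes was not tested. Of 10 tested transporters and receptors of nucleosides and nucleotides, ADORA2B, an adenosine receptor, fell by 0.41 (SE 0.089, limma adjusted p = 0.0151) and 9 did not pass. Its call was lost without 8-oxoguanine replicate 1 (0.0741) or mock replicate 1 (0.0507).

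At 6 h most purine genes had nearly the same signal on the treated and the mock array. With a single array in each group these values have no replicate check, and no test was made. None of the 28 genes above the signal limit was 1.5-fold or more higher on the treated array, beside 3.32% of all 11108 probe sets kept, and 1 was 1.5-fold or more lower, beside 5.44%. Centring each array on its median turned the split of all probe sets from 369 higher and 604 lower to 601 higher and 365 lower and left the counts of purine genes at 0 and 1. It raised every 6 h log2 ratio by 0.115. The median log2 ratio of the 28 genes was 0.021, and 0.050 with quantile normalization, beside -0.032 and 0.020 for all probe sets.

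The gene past 1.5-fold was NT5C2, with a signal of 923 on the mock and 548 on the treated array, a log2 ratio of -0.75 (-0.66 with quantile normalization). IMPDH2 and IMPDH1 lay above 0, with 3595 and 4759.6 for IMPDH2 (log2 ratio 0.40, 0.26 with quantile normalization) and 519.6 and 675 for IMPDH1 (0.38 and 0.47). ITPA had 1098 and 1444 (0.40 and 0.46). NME1 had 5393 and 7018, and its log2 ratio of 0.38 became 0.029 with quantile normalization. At this time bright probe sets had higher ratios, the median being 0.27 for signals of 4000 to 8000 and 0.67 above that. By the brighter of their arrays, NME1 and IMPDH2 lay in the range of 4000 to 8000.

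The genes of the route to IMP had log2 ratios near 0 as deposited. Those of PPAT and PAICS turned positive with centring, but PAICS had -0.16 with quantile normalization. As deposited the values were -0.042 for PPAT, -0.14 for GART, 0.065 for PFAS, the amidotransferase after GART, -0.080 for PAICS, 0.029 for ADSL and 0.034 for ATIC. HPRT1 and APRT had 0.13 and 0.029, and PNP, AMPD2 and XDH had 0.024, -0.074 and -0.058, of which the last pair turned positive with centring. Below 0 with and without centring were PRPS2 (-0.12), DCK (-0.12), AMPD3 (-0.22) and NT5E (-0.12), and above 0 were NME3 (0.0055), NME4 (0.088) and GUK1 (0.017). GMPS (-0.076) and AK1 (-0.11) turned positive with centring. Of the genes under the limit at 6 h, SAMHD1, which breaks down deoxynucleoside triphosphates, had a signal of 134 on the mock and 128 on the treated array, ADA 131 and 145, GMPR 86.9 and 78.4, and ENTPD1 92.6 and 59.0.

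Several genes had more than 1 probe set at 6 h, and some of these disagreed. ADK gave 1478 on the mock and 1508 on the treated array on its brightest probe set (log2 ratio 0.029) but 467 and 172 on the other (-1.44), which is the one present on the 12 h arrays. DGUOK had 0.24 on its brightest and -0.14 on the probe set used at 12 h, and PRPS1 0.23 and -0.051. The 4 GART probe sets above the limit ran from -0.60 to 0.34, PAICS had -0.080 and 0.17, and PPAT -0.042 and -0.41.

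Set side by side on the same probe set, 26 purine genes were tested at 12 h and kept at 6 h. As deposited, 15 had the same sign at both times and 11 the opposite sign. The counts were 8 and 18 after median centring of the 6 h arrays and 11 and 15 after quantile normalization, and the 11 opposite as deposited were opposite under both of these scalings too. Centring raised every 6 h log2 ratio, so it could not turn those of the 11 that lay above 0 at 6 h and is no check of them. IMPDH2 was above 0 at both times (0.40 at 6 h, or 0.26 with quantile normalization, and 0.31 at 12 h). DGUOK, AMPD2, PAICS, PRPS1 and NT5E were below 0 at both as deposited, with 6 h log2 ratios of -0.14, -0.074, -0.080, -0.051 and -0.12. Those of AMPD2, PAICS and PRPS1 lay above 0 after median centring. With quantile normalization AMPD2 (-0.0029) and PAICS (-0.16) lay below 0 and PRPS1 (0.0046) above it. ITPA and NME1 were above 0 at 6 h and below it at 12 h, and NT5C2 and GART below 0 at 6 h (-0.75 and -0.14) and above it at 12 h. The arrays of each time were of a type and number of their own, and no test was made between the times.

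**Figure D4:**
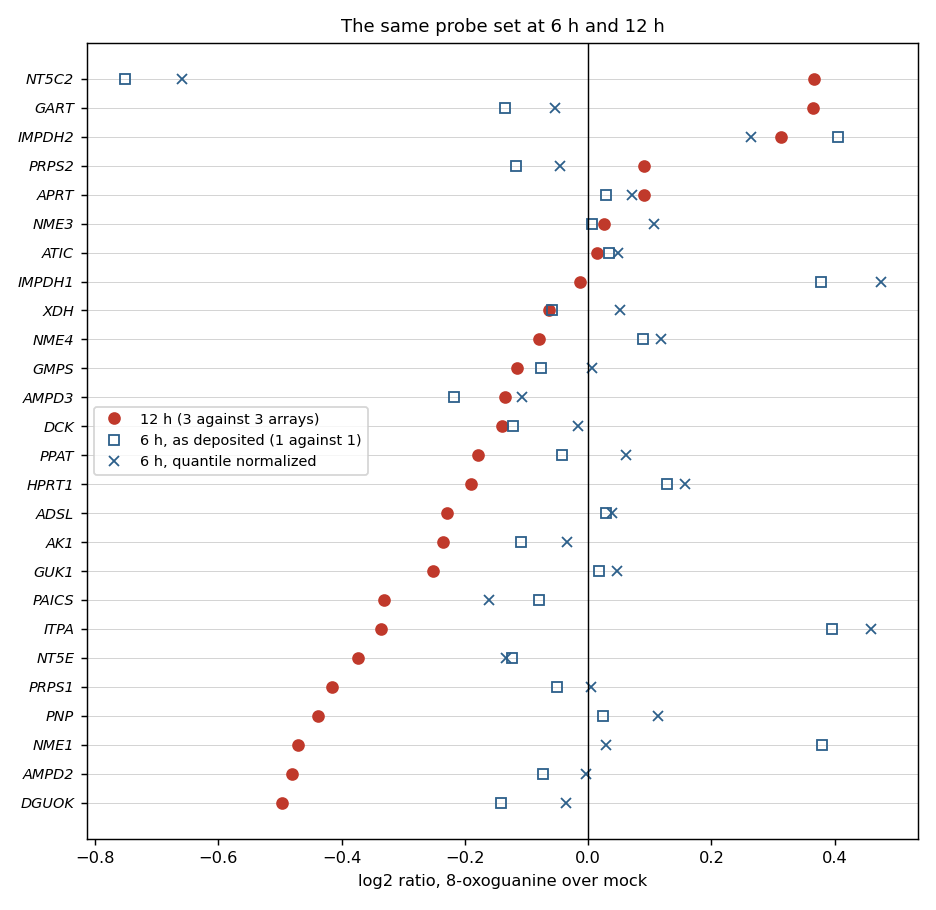
Log2 ratio of 8-oxoguanine over mock of 26 purine genes (y axis, ordered by the 12 h value) on the same probe set at 12 h (circles) and at 6 h as deposited (squares) and after quantile normalization (crosses). NT5C2 and ITPA lie on opposite sides of 0 at 6 h and 12 h, and IMPDH2 on the same side.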

How the data were processed

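Biotin-labelled cRNA from total RNA of MRC5 cells was measured on single-colour arrays, 2 at 6 h and 6 at 12 h. The authors deposited 1 linear intensity per probe set and array, a MAS5 signal per the submitters' processing notes, with settings not given in the sources used here. Each array's mean without the lowest and highest 2% was near 500 (499.88 to 499.92). The arrays thus share this mean, but at 6 h they differed at the bright end. Log2 of the intensity was used without further scaling, and control probe sets were left out. Probe sets with a mean log2 value under the 40th percentile at 12 h (a signal of 93.9) or the 50th at 6 h (148) were not tested.

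The 12 h groups were compared over 5248 probe sets with limma 3.58.1 in R 4.3.3 (lmFit and eBayes with an intensity trend, two-sided, Benjamini-Hochberg adjustment over all of them). Tested on simulated data over 5248 probe sets, this recovered 85 of 100 changes of 2-fold and 53 of 100 of 1.5-fold, with 5 false calls. The simulated noise was independent between probe sets and arrays, which that of the real arrays may not be. No change smaller than 1.5-fold was simulated, so these rates do not give the reliability of the purine calls. At 6 h a ratio past 1.5-fold was counted, with no test. Symbols were taken from GEO's platform table, in which 7840 of 8746 probe sets at 12 h and 19064 of 22215 at 6 h had 1 symbol. All purine genes were named, and of each other list up to 6 that passed. The genes, arms and lists were chosen with earlier results of these data known. The alternatives were median centring, quantile normalization, other signal limits, adding the 20th percentile of signal before log2, no intensity trend, the extract number as a block, averaging probe sets per gene and leaving out each array.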

Additional observations from a re-analysis of the deposited data

Results flagged for a closer look

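Among the purine genes read on the same probe set, 4 had a 6 h log2 ratio opposite in sign to a 12 h change whose groups did not overlap, under each of the 3 scalings, and were either called at 12 h or past 1.5-fold at 6 h. Median centring raised every 6 h log2 ratio, so it could not turn those of ITPA, NME1 and GUK1, which lay above 0. NT5C2 had -0.75 at 6 h and 0.37 at 12 h, ITPA 0.40 and -0.34, NME1 0.38 and -0.47, and GUK1 0.017 and -0.25. The difference was not tested, since each 6 h value rests on 1 pair of arrays of another type.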

How the results depend on the processing

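At 12 h the 8 falls and 1 rise among the purine genes were also the counts under both other scalings, but not of the same genes. NT5E lost its call with median centring (limma adjusted p = 0.0632) and GUK1 with quantile normalization (0.0572), and PNP gained one in each (0.0458 and 0.0477). The counts were 5 and 0 with no filter, 3 and 0 with no intensity trend and 5 and 0 with the extract number as a replicate block, and leaving out 1 array gave 2 to 8 falls and 0 to 1 rise. Falls over all probe sets went from 349 to 282 with no filter, 236 with no intensity trend and 262 with the block. The fit with no filter covered 8746 probe sets in place of 5248. Whether the purine falls dropped by more than those of all probe sets was not tested. Over all probe sets, leaving out 1 array gave 188 to 323 lower and 183 to 326 higher. Whether the extract numbers pair the samples is not stated. Deviations from the group means correlated at 0.0757, -0.149 and -0.0503 for extracts 1, 2 and 3. Between unlike numbers they correlated at -0.184 to 0.201, and 3 arrays in each group are too few to decide this. With the block, PRPS1, PAICS, AMPD2 and NME1 kept their call and IMPDH2, DGUOK, GUK1, NT5E and ITPA lost it, while PNP gained one (limma adjusted p = 0.0324).

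Signs turned at 12 h for genes near 0 that did not pass. ATIC had -0.00063 with median centring and -0.027 to 0.064 without single arrays. The ranges without single arrays were -0.15 to 0.075 for IMPDH1, -0.29 to 0.0017 for GMPS, -0.054 to 0.22 for GMPR, -0.19 to 0.013 for XDH and -0.11 to 0.15 for NME3.

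At 6 h, 2 purine genes were past 1.5-fold lower with no filter, 3 when probe sets were averaged per gene and 2 with the probe set used at 12 h, a setting added after the data were seen. Over all probe sets there were 365 lower and 601 higher with median centring, 237 higher with quantile normalization, 236 lower with the 70th percentile filter, and 3523 lower and 2676 higher with no filter. The cause of these shifts was not tested. Signals near or under the limit set how far dim genes (ADK at 12 h, ENTPD1, GMPR) can be read.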

Other observations

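NUDT1, which encodes the MTH1 enzyme that removes oxidised purine triphosphates from the nucleotide pool, was singled out after its values were seen. Its probe set lay under the signal limit at 12 h, with 103 ± 20.2 on the mock and 56.2 ± 13.6 on the treated arrays (SD, n = 3). All treated arrays were lower, and in a limma fit of all 8746 probe sets its log2 fold change was -0.87 (SE 0.30, limma adjusted p = 0.135), which did not pass. At 6 h its log2 ratio was -0.11.

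The 2 purine genes left out by the limit at 12 h did not pass in that fit either, with log2 fold changes of 0.41 for ADK (limma adjusted p = 0.596) and -0.89 for ENTPD1 (0.422).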
